A study of Mus musculus with 15 samples.

Results

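The liver breaks sugar down to pyruvate in glycolysis and builds glucose back up from lactate, alanine and glycerol in gluconeogenesis. Both routes share the enzymes of the reversible steps and differ at the irreversible ones, where phosphofructokinase and pyruvate kinase run one way and pyruvate carboxylase, PEPCK, fructose bisphosphatase and glucose-6-phosphatase run the other. Fructose enters below the phosphofructokinase step, and the malate-aspartate shuttle carries reducing equivalents and carbon between mitochondrion and cytosol. In the fed liver insulin and the sugar-sensing factor ChREBP favour the downward route, and in the fasted liver glucagon, FOXO1 and PGC-1α favour the upward one.

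The 38 genes described here were the rows of the count table that carry the names of enzymes of glycolysis, gluconeogenesis and fructose breakdown, of the mitochondrial pyruvate carrier, and of some of their regulators. They are 38 of the 21702 genes in the table. They fill 39 rows, because Aldoa is listed under a second identifier that never had more than 2 counts and was not used. RNA was sequenced from the livers of 15 wild-type (WT) female mice in 5 groups of 3, whose strain is C57BL/6 in the labels and C57BL/6N in the study's methods. Every mouse was a young adult virgin at the start and received an adeno-associated virus of serotype 8 (AAV8) through the tail vein, before any mating. The AAV8-null mice, whose vector carries the hepatocyte-specific TBG promoter and no coding sequence, were sampled non-pregnant (NP), at 8 days post-coitum (dpc) and at 16 dpc. In the AAV8-p21 mice the same promoter drove a mouse p21 cDNA, an inhibitor of the cell cycle, and livers were taken at 8 dpc and at 16 dpc. There was no NP group with AAV8-p21, so the comparison of AAV8-p21 at 16 dpc with NP changes virus and stage together. The labels call the libraries of a group separate samples, and a p-value measures the spread between them.

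The libraries held between 12280709 and 17615185 counts on genes. Values are given as CPM, the count of a gene relative to the TMM-normalized library size, and levels of different genes are compared only as CPM per kb of exon. The exon length takes in all annotated exons of a gene, merged over its transcripts, and is not that of a single transcript. A gene was called where edgeR's quasi-likelihood test gave an adjusted p under 0.05 over the 12172 genes tested, and all 38 genes were among them. Cdkn1a, the gene of p21, lay between 3.29 and 127 CPM in the AAV8-null libraries and between 347 and 1660 in the AAV8-p21 libraries, without overlap. All 6 hepatocyte markers were detected in every group, and their summed level lay between 74900 and 130000 CPM in NP and 8 dpc livers and between 271000 and 433000 at 16 dpc. The defining markers of skeletal muscle and exocrine pancreas summed to at most 0.0852 CPM in any library. Alb alone took 7.9% to 12.87% of the counts in NP and 8 dpc libraries and 20.52% to 27.83% at 16 dpc. Scaled to library totals in place of TMM, the median of all genes shifted by -0.68 on the log2 scale for AAV8-null at 16 dpc against NP and by -0.71 against 8 dpc, and the log2 fold changes of 17 of the 38 genes changed sign in each. Every direction given below for 16 dpc is therefore relative to the typical gene of the liver.

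Pck2, Mpc1 and Mlxipl were the only 3 of the 38 genes called in any of the 8 comparisons, and the 250 bases before their start sites in RefSeq (build GRCm38.p6, + strand, 5′ to 3′) are shown here because the findings turn on these genes. Capitals mark matches to the CCAAT box (CCAAT), the GC box (GGGCGG) and the E-box (CACGTG), each searched on both strands. The 3 windows lie at chr14:55540016-55540265 for Pck2, at chr17:8283537-8283786 for Mpc1 and at chr5:135089640-135089889 for Mlxipl.
Pck2: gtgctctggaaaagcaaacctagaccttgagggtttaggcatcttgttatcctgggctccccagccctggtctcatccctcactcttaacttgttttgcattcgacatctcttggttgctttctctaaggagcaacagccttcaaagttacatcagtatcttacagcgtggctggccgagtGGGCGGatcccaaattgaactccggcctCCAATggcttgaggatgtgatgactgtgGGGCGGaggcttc
Mpc1: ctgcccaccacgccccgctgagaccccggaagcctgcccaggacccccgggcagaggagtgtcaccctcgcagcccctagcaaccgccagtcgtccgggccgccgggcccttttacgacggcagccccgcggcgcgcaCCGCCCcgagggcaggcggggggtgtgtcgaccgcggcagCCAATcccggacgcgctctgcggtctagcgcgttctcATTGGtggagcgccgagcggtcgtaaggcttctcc
Mlxipl: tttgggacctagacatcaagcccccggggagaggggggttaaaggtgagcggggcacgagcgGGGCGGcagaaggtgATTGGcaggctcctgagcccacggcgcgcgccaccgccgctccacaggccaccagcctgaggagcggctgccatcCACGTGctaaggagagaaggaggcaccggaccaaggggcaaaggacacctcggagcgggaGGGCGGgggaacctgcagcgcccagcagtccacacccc

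All 38 genes matched the RefSeq windows, with 57 windows among the 32851 listed. The shares given here are over the 250 bases before the start in each window, and the 50 bases after it were not searched. The start that RefSeq gives for the Mpc1 window lies 883 bases from that of GENCODE. The Pck2 window held 2 GC boxes around a CCAAT box, and a GC box was present in 32.7% of all windows and in 27 of the 57 windows of the 38 genes. CCAAT was present in 33.8% of all windows and in 26 of these 57, and the Mpc1 window held it on each strand. CACGTG, the core letters that ChREBP and other basic helix-loop-helix factors can bind, was present in 6.02% of all windows and in 7 of these 57. The 7 windows belonged to 7 genes, which were Pfkm, Pfkfb3, Ldha, Ldhd, Pcx, Khk and Mlxipl, the gene of ChREBP itself. Such a match is a run of letters and no measured site.

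The level per length ran from 654 CPM per kb for Pck1 and 635 for Fbp1 down to 0.146 for Pfkp, as means over all 15 libraries. The neighbours at either end changed places between groups, with Fbp1 above Pck1 in AAV8-null livers at 16 dpc (712 and 627 CPM per kb) and Hk2 below Pfkp in NP livers (0.134 and 0.172). Pck1, the cytosolic PEPCK that commits carbon to gluconeogenesis, and Fbp1, which removes a phosphate from fructose bisphosphate, were followed by Ldha at 319 CPM per kb, Mdh1 at 212 and G6pc at 193. G6pc is the catalytic glucose-6-phosphatase that releases free glucose. Pklr, the liver pyruvate kinase, took 94.5% ± 1.99 (SD, n = 15 libraries) of the pyruvate kinase level per length and Pkm the rest. Ldha took 99.6% ± 0.281 of the sum of Ldha and Ldhb, and Eno1 took 95.9% ± 0.791 of the enolases. Phosphofructokinase was split between the liver form Pfkl, at 53.5% ± 7.48, and the muscle form Pfkm, at 44.4% ± 7.5, with Pfkp at 2.14% ± 0.521. This split depends on the merged exon lengths, 6.67 kb for Pfkl, 3.34 kb for Pfkm and 13.4 kb for Pfkp. Before division by length their mean levels were 24.0, 10.25 and 1.96 CPM. Of the PEPCK level, the mitochondrial isozyme Pck2 made up 0.0851% ± 0.0555, so the gene with the smallest p among the 38 was also among the scarcest. Hk1 and Hk2, the hexokinases of other tissues, stood at 0.278 and 0.162 CPM per kb.

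**Figure D1:**
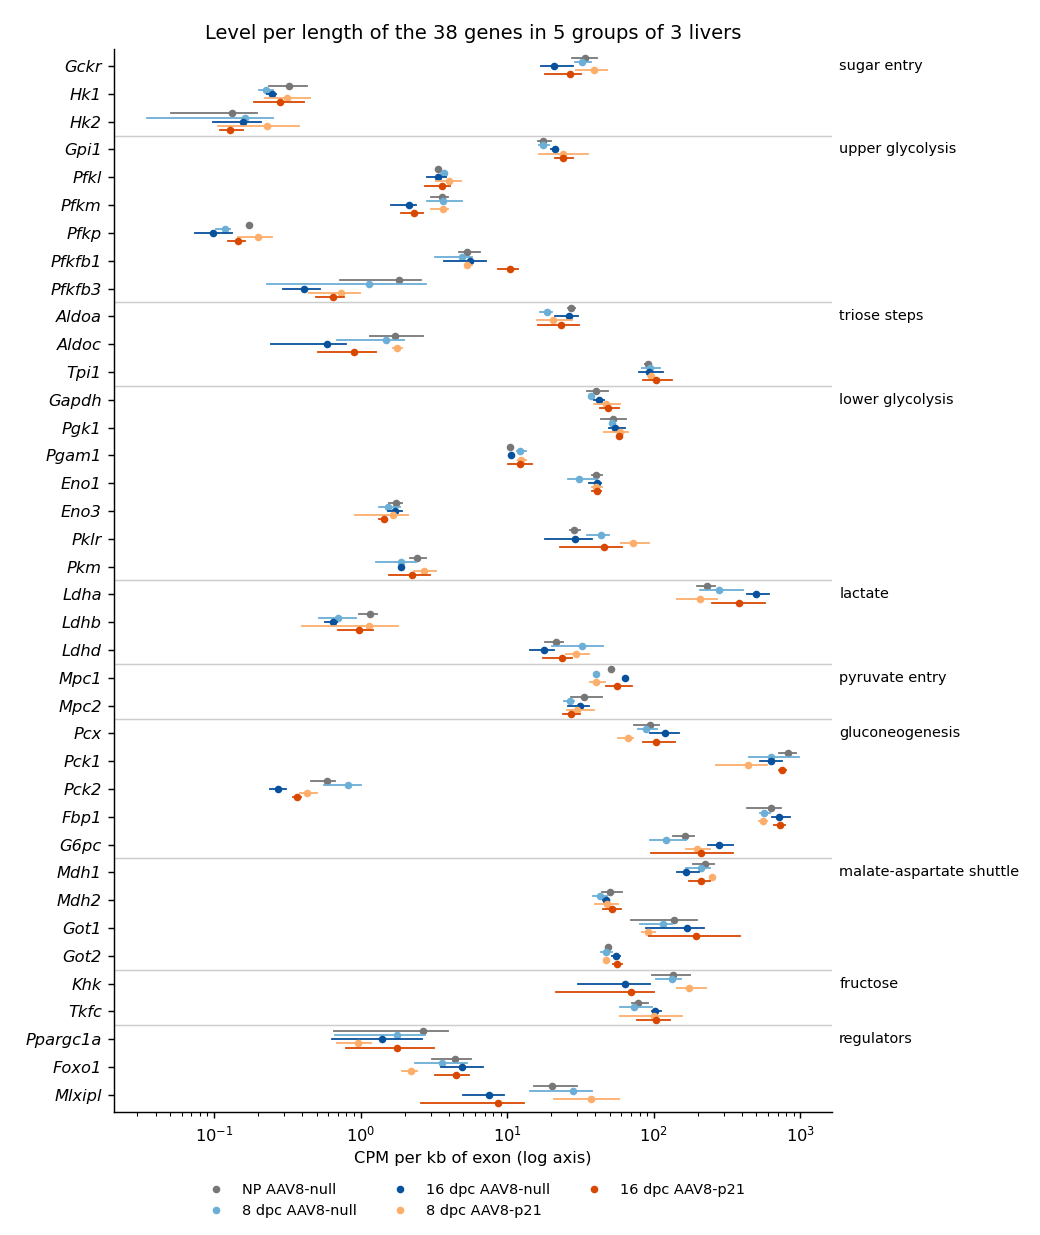
Level of each of the 38 genes in CPM per kb of exon on a log axis, in the order of the pathway. Points are means of 3 livers, lines run from the lowest to the highest liver, and colours mark the 5 groups. The group means span from 817 CPM per kb for Pck1 in NP livers to 0.098 for Pfkp in AAV8-null livers at 16 dpc.

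Late pregnancy was compared with the non-pregnant state under the control virus, which asks how the pathway stands at 16 dpc. Of the 38 genes, 1 was called between AAV8-null at 16 dpc and NP, against 6.52% of all genes tested (2.82% called lower), and it was Pck2, which fell. Another 8 had an unadjusted p under 0.05, so that 9 of 38 did, against 21.2% of all genes. The median log2 fold change of the 38 was -0.01, beside -0.03 over all genes, and 19 lay above 0. The NP and 16 dpc livers did not overlap for 14 of the 38, against 24.6% of all genes. Of these 5 were higher at 16 dpc, against 12.1% of all genes, and 9 lower, against 12.5%. The share of calls thus lay below that of all genes, and the share without overlap above it. DESeq2 called 4 of the 38, against 9.03% of all genes that it tested, and limma voom also called 4, against 13.2%.

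Pck2 makes phosphoenolpyruvate inside the mitochondrion, from oxaloacetate, and lies on chromosome 14 (55540266 to 55551242 on the + strand, GRCm38). Its level was 5.19, 5.00 and 3.57 CPM in the 3 NP livers. With AAV8-null, the 8 dpc livers had 7.80, 7.03 and 4.42 CPM and the 16 dpc livers 1.87, 2.08 and 2.40. Every 16 dpc liver lay below every NP and every 8 dpc liver, whereas NP and 8 dpc overlapped. Pck2 fell by 1.11 ± 0.264 (SE) on the log2 scale from NP to 16 dpc (edgeR, adjusted p = 0.0215) and by 1.59 ± 0.262 from 8 dpc to 16 dpc (edgeR, adjusted p = 0.00279). The first of these calls was lost when NP replicate 1 or 2 or 16 dpc replicate 1 or 2 was left out, with log2 fold changes from -1.26 to -1.01 over all 6 omissions, and with only the compared groups in the fit (adjusted p = 0.0785 by edgeR and 0.0537 by DESeq2). The second was kept in all 6. Its counts were low, between 21 and 134 per library.

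The other genes below an unadjusted p of 0.05 between NP and 16 dpc belonged to several steps. Ldha, which interconverts pyruvate and lactate, was the 1 with a higher value, at 769 ± 106 CPM (SD, n = 3 mice) in NP and 1655 ± 326 at 16 dpc. Its log2 fold change was 1.11 ± 0.347 (SE), with an edgeR adjusted p of 0.0762, and DESeq2 and voom called it at adjusted p of 0.0200 and 0.0130. The 7 others with lower values were Gckr, Pfkm, Pfkp, Pfkfb3, Aldoc, Khk and Mlxipl. Pfkfb3, which makes the activator of phosphofructokinase, had 13.8 ± 7.35 CPM in NP and 3.11 ± 0.888 at 16 dpc and was called by DESeq2 and voom and not by edgeR. Khk, the first enzyme of fructose breakdown, had 244 ± 72.4 CPM in NP and 115 ± 57.4 at 16 dpc, with an edgeR adjusted p of 0.213. Within lower glycolysis, from Gapdh to pyruvate kinase, none of the 7 genes had a p under 0.05, and their log2 fold changes lay between -0.37 and 0.09.

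**Figure D2:**
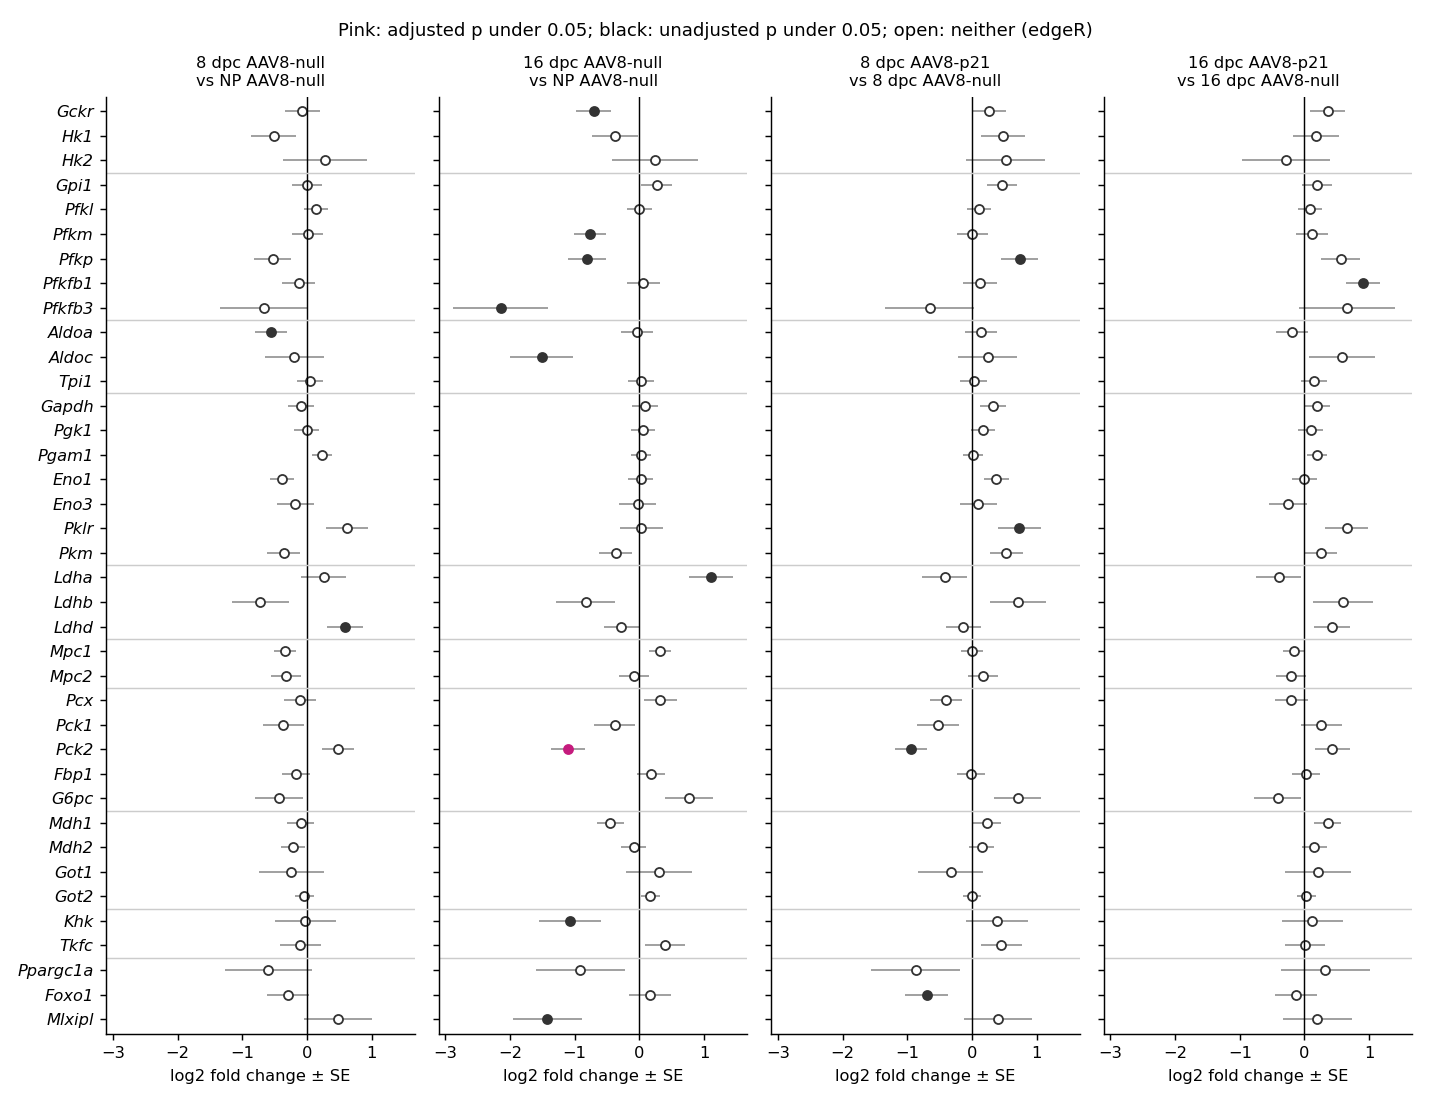
Log2 fold change of each of the 38 genes in 4 comparisons, with standard errors from edgeR. Pink points were called, black points had an unadjusted p under 0.05 only, and open points neither. Pck2 is the only pink point, between AAV8-null at 16 dpc and NP, and most points of the 2 virus comparisons lie right of 0.

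Between 8 dpc and NP, which asks what had moved by mid pregnancy, edgeR called none of the 38, and it called 0.0% of all genes. Only Aldoa and Ldhd had an unadjusted p under 0.05, against 6.6% of all genes. DESeq2 called none of the 38, against 0.457% of all genes. Voom called 7, which were Pfkfb3, Aldoa, Eno1, Pklr, Ldhd, Pck2 and Foxo1, against 15.2% of all genes. Aldoa, the aldolase that splits fructose bisphosphate, was at 79.4 ± 4.70 CPM (SD, n = 3 mice) in NP and 54.3 ± 5.04 at 8 dpc, without overlap. The groups did not overlap for 7 of the 38, against 10.2% of all genes. The median log2 fold change was -0.12, and 11 of the 38 were above 0, beside 49.0% of all genes.

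From 8 dpc to 16 dpc under AAV8-null, 3 of the 38 were called, against 6.87% of all genes. Pck2, as given above, and Mlxipl fell, 2 genes against 3.71% of all genes called lower. Mpc1 rose, 1 gene against 3.16% called higher. Unadjusted p was under 0.05 for 10 of the 38, against 22.7% of all genes, and 14 did not overlap, against 25.4%. DESeq2 called 6 of the 38, against 10.3% of all genes, and voom 8, against 14%.

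Mpc1, 1 of the 2 subunits of the carrier that brings pyruvate into the mitochondrion, had the tightest groups of the called genes. NP livers had 107, 107 and 103 CPM, 8 dpc livers with AAV8-null had 84.5, 81.1 and 85.6, and 16 dpc livers had 131, 136 and 130. The 3 groups did not overlap, with 8 dpc lowest and 16 dpc highest. The log2 fold change from 8 dpc to 16 dpc was 0.66 ± 0.169 (SE, edgeR, adjusted p = 0.0327). Scaled to library totals it was -0.05, so the rise is relative to the other genes of the 16 dpc liver. The call was lost in 5 of the 6 omissions of a library, all but that of 8 dpc replicate 3, while the log2 fold change stayed between 0.63 and 0.68. Its partner Mpc2 was at 196 ± 15.4 CPM (SD, n = 3 mice) at 8 dpc and 231 ± 37.6 at 16 dpc and was not called. With AAV8-p21, Mpc1 had 79.0, 76.1 and 96.2 CPM at the earlier stage and 108, 97.8 and 147 CPM at the later one, again without overlap, and the edgeR adjusted p of 0.144 missed the threshold, while DESeq2 and voom gave 0.0480 and 0.0336.

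Mlxipl, which encodes ChREBP, the transcription factor that turns on glycolytic and lipogenic genes when sugar is plentiful, lies on chromosome 5 (135089890 to 135138382 on the + strand). AAV8-null livers had 209, 180 and 79.4 CPM at 8 dpc and 52.6, 27.8 and 44.4 CPM at 16 dpc. AAV8-p21 livers had 187, 116 and 318 CPM at 8 dpc and 71.6, 57.4 and 14.4 CPM at 16 dpc. NP livers had 166, 85.0 and 84.3 CPM. Under either virus every 16 dpc liver lay below every 8 dpc liver. The log2 fold change was -1.91 ± 0.545 (SE) with AAV8-null and -2.12 ± 0.548 with AAV8-p21, and both calls were close to the threshold (edgeR, adjusted p = 0.0496 and 0.0497). The first call was lost on leaving out any library but 8 dpc replicate 3, with log2 fold changes from -2.23 to -1.65, and the second on leaving out any of the 6, with -2.53 to -1.65.

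The library of 8 dpc AAV8-null replicate 3 stood apart from the other two of its group in many of the 38 genes. It had 21.01 CPM of Pfkfb3 beside 3.14 and 1.73, and 1354 CPM of Ldha beside 683 and 723. Without it, 8 of the 38 were called between 8 dpc and 16 dpc in place of 3, while the share of all genes called went from 6.87% to 10.3%. The added genes were Ldhd and Aldoc, both lower, and G6pc, Eno1 and Ldha, all higher at 16 dpc. G6pc then had a log2 fold change of 1.49 (edgeR, adjusted p = 0.0363), beside 1.2 and 0.0661 with all libraries. Pfkfb3 was then called between 8 dpc and NP, at -2.50 (edgeR, adjusted p = 0.0486), as were 0.744% of all genes.

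The comparison of viruses asks what p21 in hepatocytes does to the pregnant liver. At 16 dpc edgeR called none of the 38 between AAV8-p21 and AAV8-null, and it called 0.0739% of all genes. Pfkfb1 alone had an unadjusted p under 0.05, against 9.77% of all genes. DESeq2 and voom called none of the 38, against 0.965% and 0.961% of all genes. The livers did not overlap for 4 of the 38, against 13.7% of all genes. The median log2 fold change was 0.16, and 28 of the 38 lay above 0. Over all genes the median was near 0, at -0.000231. By role, the genes above 0 were 2 of 3 in sugar entry, 6 of 6 in upper glycolysis, 2 of 3 in the triose steps, 5 of 7 in lower glycolysis and 2 of 3 in lactate metabolism. They were 0 of 2 in the pyruvate carrier, 3 of 5 in gluconeogenesis, 4 of 4 in the malate-aspartate shuttle, 2 of 2 in fructose metabolism and 2 of 3 among the regulators.

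Pfkfb1 encodes the liver form of the enzyme that makes and breaks the fructose bisphosphate isomer that sets the pace of phosphofructokinase against fructose bisphosphatase. At 16 dpc its level was 43.7, 34.6 and 47.9 CPM with AAV8-p21 and 23.5, 14.8 and 29.0 with AAV8-null. NP livers had 19.0, 19.3 and 26.3 CPM. At 8 dpc the level was 22.9, 23.2 and 13.0 CPM with AAV8-null and 20.7, 23.0 and 20.7 CPM with AAV8-p21. The 3 AAV8-p21 livers at 16 dpc lay above all 12 others. Against AAV8-null at 16 dpc the log2 fold change was 0.91 ± 0.262 (SE), and the edgeR adjusted p of 0.244 missed the threshold. Against AAV8-p21 at 8 dpc it was 0.97 ± 0.261, with an edgeR adjusted p of 0.0573, where DESeq2 and voom gave 0.0127 and 0.0154.

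**Figure D3:**
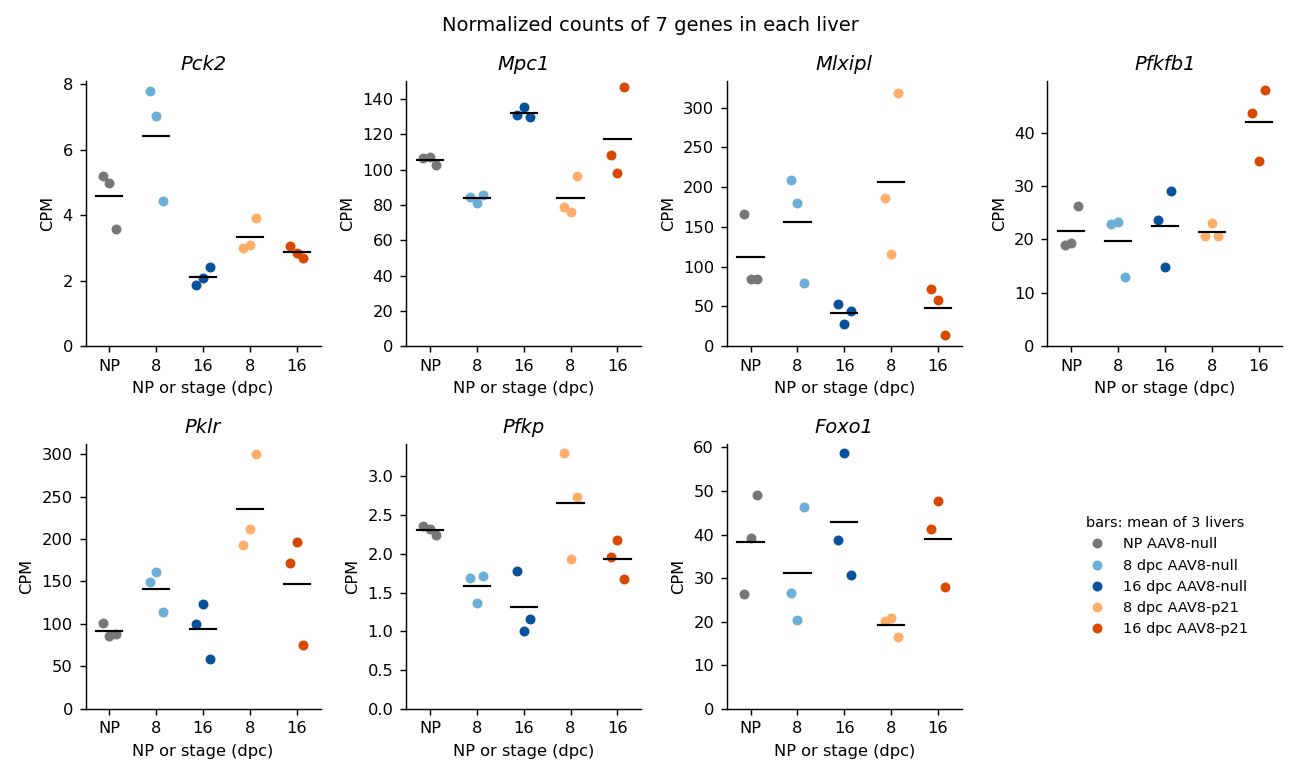
CPM of Pck2, Mpc1, Mlxipl, Pfkfb1, Pklr, Pfkp and Foxo1 in each of the 15 livers, on linear axes from 0. Points are livers, bars are means of 3, and colours mark virus and stage. Pck2 is lowest in the AAV8-null livers at 16 dpc, and Pfkfb1 is highest in the 3 AAV8-p21 livers at 16 dpc.

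At 8 dpc the viruses did not differ past the threshold in any of the 38 by edgeR, which called 0.0246% of all genes. Pck2, Pfkp, Pklr and Foxo1 had an unadjusted p under 0.05, 4 of 38 against 5.18% of all genes. DESeq2 called none of the 38, against 0.177% of all genes, and voom 1, Pck2, against 0.863%. The AAV8-p21 livers were higher without overlap for 4 of the 38, against 5.52% of all genes, and lower for 2, against 4.49%. In all, 28 of the 38 had a log2 fold change above 0, beside 49.6% of all genes, and 23 did when scaled to library totals. The median was 0.14. By role, 7 of 7 genes lay above 0 in lower glycolysis, between 0.02 and 0.73, 3 of 3 in sugar entry, 5 of 6 in upper glycolysis, 3 of 3 in the triose steps and 1 of 3 in lactate metabolism. The genes above 0 were 2 of 2 in the carrier, 1 of 5 in gluconeogenesis, 3 of 4 in the shuttle, 2 of 2 in fructose metabolism and 1 of 3 among the regulators, whose median was -0.70.

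With AAV8-p21, Pck2 had 3.01, 3.08 and 3.92 CPM at 8 dpc, all below the 3 AAV8-null livers of that stage, whose values are given above. The log2 fold change was -0.94 ± 0.248 (SE, edgeR, adjusted p = 0.415), and voom gave -1.17 (adjusted p = 0.0160). Pklr, which makes pyruvate and ATP at the last step, was at 193, 212 and 300 CPM with AAV8-p21 and at 150, 161 and 114 with AAV8-null. All 3 AAV8-p21 livers lay above the AAV8-null livers, with a log2 fold change of 0.73 ± 0.330 (edgeR, adjusted p = 0.945). Pfkp, the platelet form of phosphofructokinase, was at 3.31, 1.94 and 2.73 CPM with AAV8-p21 and at 1.69, 1.37 and 1.72 with AAV8-null. It did not overlap either (0.74 ± 0.283, edgeR, adjusted p = 0.807). Foxo1, a factor that drives gluconeogenic genes when insulin is low, was at 20.04, 20.8 and 16.5 CPM with AAV8-p21. With AAV8-null it was at 26.5, 20.5 and 46.4 CPM, overlapping by 1 liver (-0.70 ± 0.327, edgeR, adjusted p = 0.961). Without 8 dpc AAV8-null replicate 3 the log2 fold change of Foxo1 was -0.29, with any other library left out it lay between -0.93 and -0.62, and voom gave -0.33.

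For the same 4 genes at 16 dpc, the AAV8-p21 livers had 3.07, 2.84 and 2.69 CPM of Pck2, just above the AAV8-null livers without overlap. Pklr was at 172, 196 and 74.7 CPM with AAV8-p21 and at 99.6, 124 and 58.7 with AAV8-null. Pfkp was at 1.96, 2.18 and 1.68 CPM with AAV8-p21 and at 1.78, 0.9998 and 1.16 with AAV8-null. Foxo1 was at 41.2, 47.6 and 27.9 CPM with AAV8-p21 and at 38.9, 58.7 and 30.8 with AAV8-null. Pklr, Pfkp and Foxo1 overlapped between the viruses at this stage. NP livers had 102, 86.3 and 88.2 CPM of Pklr, 2.36, 2.32 and 2.24 of Pfkp, and 26.4, 39.1 and 49.2 of Foxo1. Across the whole pathway, edgeR called no gene of the 38 for the interaction of virus and stage and 0.0% of all genes, with 2 of the 38, Pck2 and G6pc, at an unadjusted p under 0.05, against 3.09% of all genes. DESeq2 and voom called none of the 38 and 0.0% of all genes.

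From 8 dpc to 16 dpc under AAV8-p21, 1 of the 38 was called, Mlxipl, which fell, against 3.32% of all genes (1.23% called lower), while 9 had an unadjusted p under 0.05, against 16.4%. DESeq2 called 4, which were Pfkfb1, Mpc1, Foxo1 and Mlxipl, against 5.77% of all genes, and voom called 6, against 14.9%. The livers did not overlap for 11 of the 38, against 22.9%. Between AAV8-p21 at 16 dpc and NP, edgeR called none of the 38, beside 3.81% of all genes. There 4 had an unadjusted p under 0.05, against 16% of all genes, and 8 did not overlap, against 20.2%. DESeq2 called 1, Pfkfb1, against 5.92% of all genes, and voom 6, against 19.0%. These comparisons share libraries with those above and are no separate support for them.

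Gluconeogenesis was represented by 5 genes, of which edgeR called Pck2 alone in any comparison. G6pc had 291 ± 92.1 CPM (SD, n = 3 mice) at 8 dpc and 669 ± 148 at 16 dpc with AAV8-null, without overlap. Its log2 fold change was 1.2 ± 0.371 (SE), which missed the threshold by edgeR (adjusted p = 0.0661) and passed it by DESeq2 (0.0171) and voom (0.0142). EdgeR called it when the AAV8-p21 livers at 16 dpc were left out of the fit (adjusted p = 0.0209). Pck1 had 2803 ± 376 CPM (SD, n = 3 mice) in NP, 2178 ± 1040 and 2149 ± 374 with AAV8-null at 8 and 16 dpc, and 1514 ± 559 and 2576 ± 140 with AAV8-p21. From 8 dpc to 16 dpc with AAV8-p21 it did not overlap, at a log2 fold change of 0.77 ± 0.322 (SE, edgeR, adjusted p = 0.243), which voom alone called (adjusted p = 0.0134). Pcx, which carboxylates pyruvate to oxaloacetate, showed the same order there, with 317 ± 40.9 CPM (SD) and 490 ± 152 and an edgeR adjusted p of 0.218. Fbp1 ran from 946 ± 63.3 CPM with AAV8-p21 at 8 dpc to 1227 ± 110 with AAV8-p21 at 16 dpc. It was higher at 16 dpc than at 8 dpc without overlap under either virus, at 0.34 ± 0.214 with AAV8-null and 0.38 ± 0.214 with AAV8-p21 on the log2 scale (SE, edgeR, adjusted p = 0.368 and 0.414). G6pc was the 1 gene of the 5 above 0 between the viruses at 8 dpc, where the median of the 5 was -0.40.

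At the entry and the phosphofructokinase step, Pfkm was lower at 16 dpc without overlap in all 4 comparisons with NP or 8 dpc. These comparisons share libraries. Pfkm had 12.1 ± 1.68 CPM (SD, n = 3 mice) in NP and 12.2 ± 3.73 and 12.2 ± 1.78 at 8 dpc with AAV8-null and AAV8-p21, against 7.12 ± 1.48 and 7.71 ± 1.34 at 16 dpc. The 16 dpc livers lay below the NP livers without overlap under either virus, and no edgeR adjusted p passed, with 0.0853 for AAV8-null against NP. Voom called Pfkm in 3 of the 4 comparisons, all but AAV8-null at 16 dpc against 8 dpc, which DESeq2 called (adjusted p = 0.0437). Pfkl, the liver isozyme, had 22.4 ± 0.325 CPM in NP and 22.4 ± 3.34 at 16 dpc with AAV8-null, so that its share of the phosphofructokinase level per length was 47.2% ± 3.32 and 60.2% ± 6.86. Gckr, which holds the hepatic hexokinase inactive in the nucleus, had 148 ± 28.5 CPM in NP and 90.6 ± 27.6 at 16 dpc with AAV8-null (edgeR, adjusted p = 0.149). Ldhd, a mitochondrial enzyme that oxidizes the D form of lactate, had 173 ± 65.6 CPM at 8 dpc and 94.4 ± 17.5 at 16 dpc with AAV8-null (adjusted p = 0.0731 by edgeR, 0.0329 by DESeq2 and 0.0136 by voom).

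The spread within groups differed between the members. It was widest for Ppargc1a, the coactivator PGC-1α that rises on fasting, with a within-group SD of 0.987 on the log2 scale, followed by Pfkfb3 at 0.934, Mlxipl at 0.793, Got1 at 0.720 and Khk at 0.719. It was narrowest for the mitochondrial transaminase Got2, at 0.0830, and for Pgam1, at 0.134. The median over the 38 was 0.310, beside 0.322 over all genes tested. Among NP livers Ppargc1a was at 4.36 CPM in replicate 1 and at 22.2 and 25.9 in the others, and Pfkfb3 at 5.47, 19.4 and 16.4. Among AAV8-p21 livers at 16 dpc, Got1, the cytosolic transaminase of the shuttle, was at 234 and 265 CPM and at 981 in the library numbered 4, which also had the lowest Mlxipl and Khk of its group.

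**Figure D4:**
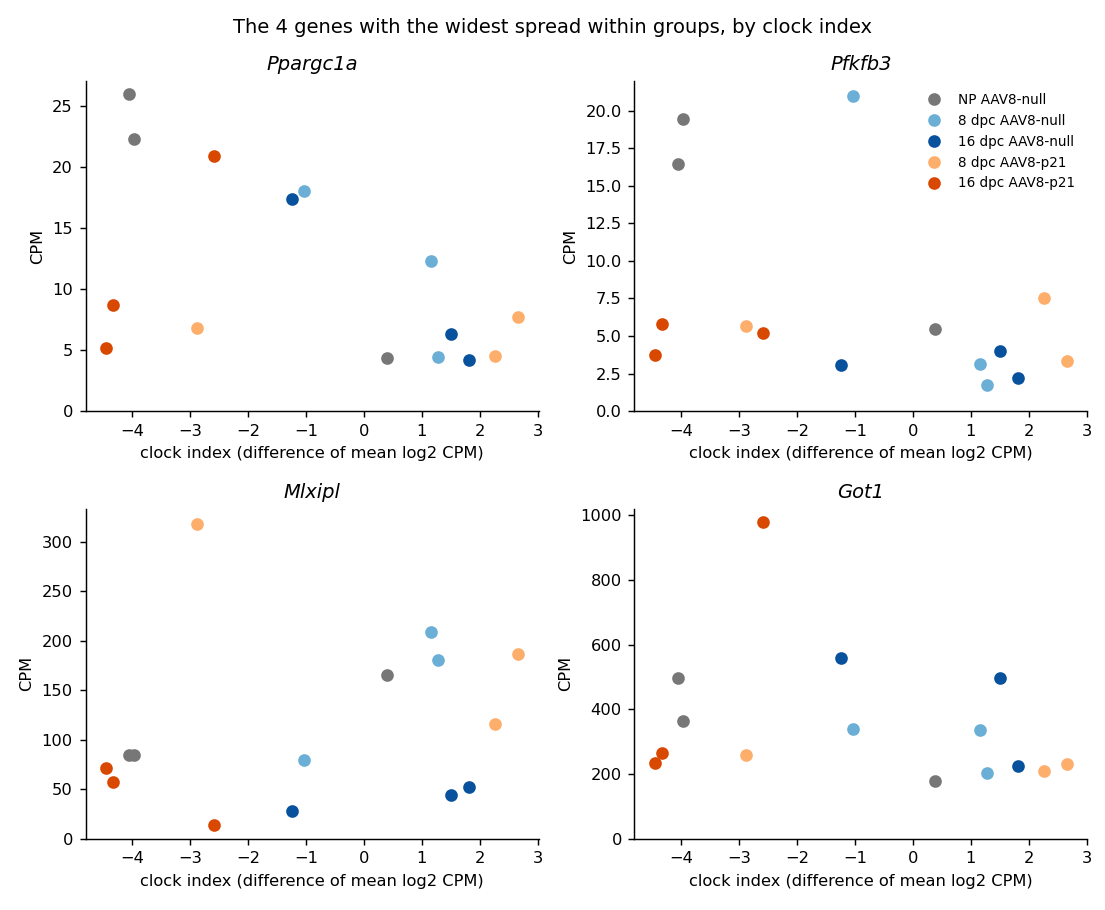
CPM of the 4 genes with the widest spread within groups, against a clock index of each liver, the mean log2 CPM of 3 genes of the Arntl side minus that of 6 genes of the Dbp side. Points are livers and colours mark the groups. Ppargc1a and Pfkfb3 are low in NP replicate 1, which has an index of 0.391, and high in the other two NP livers, at -3.97 and -4.05. The AAV8-p21 livers at 16 dpc differ from this, with indices of -4.45, -4.33 and -2.58. In the same order they have 5.20, 8.72 and 20.9 CPM of Ppargc1a and 3.75, 5.82 and 5.17 of Pfkfb3.

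Genes that follow the time of day and feeding differed between livers of one group in the same libraries. Sampling time and feeding are not given in the sources used here. The clock index was 0.391, -3.97 and -4.05 in NP livers. With AAV8-null, the 8 dpc livers had 1.16, 1.28 and -1.04 and the 16 dpc livers 1.82, -1.24 and 1.5. With AAV8-p21, the values were 2.66, 2.27 and -2.88 at the earlier stage and -4.45, -4.33 and -2.58 at the later one. At 16 dpc the index thus did not overlap between the viruses. The summed CPM of 6 fasting-response genes was 4680 and 3450 in the first 2 AAV8-null livers at 8 dpc and 16200 in replicate 3. At 16 dpc it was between 10900 and 14500 with AAV8-null and at 3260, 4790 and 12200 with AAV8-p21, the last being library 4. The part of sampling time and feeding in the values of Mlxipl, Ppargc1a, Pfkfb3, Pfkfb1, Got1 and Khk was not tested.

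Markers of other cells and zones moved with stage too. All 3 neutrophil markers were called higher between NP and 16 dpc with AAV8-null, where their sum ran from 0.548 to 1.59 CPM and from 5.17 to 28.4 CPM. With AAV8-p21 at 16 dpc the sum was 2.13 to 3.49 CPM, and no marker of any list was called between the viruses. Of the 4 periportal markers 2, Hal and Ass1, and of the 4 pericentral markers 1, Cyp2e1, were lower, and the periportal sum lay between 1380 and 1680 CPM at 16 dpc and between 2220 and 4020 in NP. The pericentral sum lay between 4530 and 6400 CPM at 16 dpc and between 9660 and 12200 in NP, so both sums were lower at 16 dpc with no overlap. Gluconeogenesis is known as a periportal and glycolysis as a pericentral function of the hepatocyte. Of 5 endothelial markers 2, Clec4g and Pecam1, were higher at 16 dpc than at 8 dpc under AAV8-null. Of 5 stellate cell and fibroblast markers, Lrat was lower at 16 dpc than in NP and Dcn higher than at 8 dpc. Of the 6 hepatocyte markers, Alb, Apoa1 and Asgr1 were called higher and Ttr lower between NP and 16 dpc with AAV8-null. In bulk RNA, fewer cells of a type and less RNA per cell cannot be told apart, and the part of these markers in the values of the 38 genes was not tested.

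A wider list of 40 other genes of sugar metabolism and its control gave 37 tested genes. The list was chosen with earlier results of these data known, so its shares of calls are description and no test of sugar metabolism. Between AAV8-null at 16 dpc and NP, 6 of them were called higher and 3 lower, 9 of 37 against 6.52% of all genes, with the smallest p for Igfbp1, Slc16a1, Bpgm, Slc25a11 and Pdk4. Slc16a1, a carrier of lactate and pyruvate across the cell membrane, was at 84.4, 43.6 and 43.6 CPM in NP livers. At 16 dpc it had 214, 149 and 190 CPM with AAV8-null and 53.2, 69.1 and 81.2 with AAV8-p21, without overlap between the viruses. Its log2 fold change was 1.69 ± 0.275 (SE) against NP (edgeR, adjusted p = 0.00218) and -1.44 ± 0.273 for AAV8-p21 against AAV8-null (edgeR, adjusted p = 0.0623). Bpgm, which makes bisphosphoglycerate beside the lower steps and is known best from red cells, was at 10.8 ± 2.82 CPM (SD, n = 3 mice) in NP and 41.3 ± 11.5 at 16 dpc with AAV8-null. It rose by 1.93 ± 0.370 on the log2 scale (edgeR, adjusted p = 0.00682), while 2 of the 4 erythroid markers tested, Hbb-bs and Alas2, were higher as well. From 8 dpc to 16 dpc under AAV8-null Bpgm rose by 1.91 ± 0.368 (edgeR, adjusted p = 0.00788), and no erythroid marker was called. The part of red cells in the level of Bpgm was not tested.

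Slc25a11, the oxoglutarate carrier of the malate-aspartate shuttle, fell from 70.0 ± 4.40 CPM (SD, n = 3 mice) to 41.8 ± 2.11 between NP and 16 dpc under AAV8-null (edgeR, adjusted p = 0.00920). The 4 shuttle enzymes among the 38 were not called. Igfbp1, a secreted protein that insulin represses, was at 147, 117 and 90.1 CPM in NP and at 982, 1499 and 1935 at 16 dpc with AAV8-null, a log2 fold change of 3.64 ± 0.454 (edgeR, adjusted p = 0.000365), and at 363, 643 and 345 with AAV8-p21. Pdk4, which shuts pyruvate dehydrogenase, was at 159, 1222 and 110 CPM in the same 16 dpc livers, of which replicate 2 was far above the others, and at 34.4, 21.8 and 52.4 in NP (edgeR, adjusted p = 0.0113). With AAV8-p21 at 16 dpc it had 22.4, 40.9 and 14.4 CPM, below every AAV8-null liver of that stage (edgeR, adjusted p = 0.0623). From 8 dpc to 16 dpc under AAV8-null 5 of the 37 were called higher, against 3.16% of all genes, and 2 lower, against 3.71%. Under AAV8-p21 1 was called higher, Bpgm, against 3.32% of all genes in either direction. For AAV8-p21 at 16 dpc against NP 3 were called higher, against 3.81% of all genes in either direction. Between the viruses edgeR called none, against 0.0739% of all genes at 16 dpc and 0.0246% at 8 dpc, with 8 at an unadjusted p under 0.05 at 16 dpc, against 9.77% of all genes, and none at 8 dpc, against 5.18%.

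Reads of 10 of the 38 genes may be shared with a gene on the opposite strand, since the library kit marked the strand but the sources do not say whether the counting used it. The overlap covered 42.2% of the exon bases of Ldhd, with Znrf1, 22.0% of Pklr, with Hcn3, 12.9% of Tkfc, with Cyb561a3, a further 7.1% of Tkfc, with Ddb1, and 5.58% of Pfkp, with Pitrm1. Across the libraries the partners had 1771 to 3581 counts for Ddb1, 347 to 718 for Pitrm1, 153 to 375 for Znrf1, 77 to 358 for Cyb561a3 and 0 to 5 for Hcn3. Pck2, Mpc1 and Mlxipl had no such overlap. Gapdh, Eno1, Pgk1, Ldha and Tpi1 have processed copies elsewhere in the genome, and their counts of unique reads are uncertain to that extent.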

How the data were processed

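Per the labels and the methods, the authors used cutadapt 1.14 for trimming of single-end reads, HISAT2 2.1.0 for alignment (mm10) and HTSeq 0.12.4 to count unique reads over protein-coding genes. The deposited values are raw counts, without normalization. Reads that do not align uniquely, such as those shared with a near-identical copy, are lost by this step. The strand setting is not given in the sources used here.

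Each column was matched to its group by name. The 3 columns of AAV8-p21 at 16 dpc carry the numbers 1, 3 and 4, unlike the labels, and were used as replicates of the group. Library pairs within a group differed by more than sampling noise. Total counts per library lay between 12280709 and 17615185, and low counts limit the precision for Pck2, Pfkp, Ldhb, Aldoc, Hk1 and Hk2.

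Differences were tested in 1 model of all 15 libraries with edgeR 4.0.16 (quasi-likelihood, R 4.3.3, TMM, filterByExpr with minimum count 10, 12172 of 21702 genes, 10 residual degrees of freedom, Benjamini-Hochberg over all genes tested). The study's own methods name DESeq2. Standard errors were computed from the F statistic. Exact permutation tests (two-sided, of log2 CPM with pseudocount 0.5) cannot go below 0.1 with 3 mice against 3. Alternatives were DESeq2 1.42.0, voom in limma 3.58.1, other scalings and filters, the compared groups alone, a replicate block and each library left out. The procedure was also run on simulated counts, and the outcome is not reported here. Gene positions and exon lengths come from GENCODE M21 (GRCm38), and promoter windows from RefSeq.

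The 38 genes and all lists were chosen with earlier results of these data known. Values in every library are given for genes called in at least 1 comparison and for those with an unadjusted p under 0.05 between the viruses, and other genes are given by range and counts. Other genes named with values, such as Ldha, Khk, Got1, G6pc and Eno1, were chosen after their values were seen.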

Additional observations from a re-analysis of the deposited data

Results flagged for a closer look

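For 2 of the 38 genes the difference between viruses differed between stages by an unadjusted test of that difference itself, and neither passed the adjustment over all genes. Pck2 had an interaction of 1.38 on the log2 scale (16 dpc difference minus 8 dpc difference, edgeR, p = 0.00203, adjusted p = 1, exact permutation p = 0.005, the smallest that exchanging viruses within stages can give). It was lower with AAV8-p21 in 3 of 3 livers at 8 dpc and higher in 3 of 3 at 16 dpc. G6pc had an interaction of -1.12 (edgeR, p = 0.0485, adjusted p = 1, exact permutation p = 0.05). Over the 12 omissions of a library this interaction lay between -1.69 and -0.772. The level of G6pc was 249, 228 and 397 CPM with AAV8-null and 397, 579 and 449 with AAV8-p21 at 8 dpc. At 16 dpc it was 837, 607 and 562 CPM with AAV8-null and 445, 831 and 231 with AAV8-p21, where the viruses overlapped.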

How the results depend on the processing

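For AAV8-p21 against AAV8-null at 16 dpc and for the interaction, the count of called genes stayed at 0 under all 10 alternatives and every omission of a library. For AAV8-null at 16 dpc against NP it was 1 as reported, 4 by DESeq2 on all libraries, by voom and by DESeq2 on the compared groups, 2 by edgeR on the compared groups, and 0 to 1 with a library left out. For 8 dpc against NP it was 7 by voom and 0 to 1 with a library left out, the 1 without 8 dpc AAV8-null replicate 3. For AAV8-null at 16 dpc against 8 dpc it was 3 as reported, 6 by DESeq2, 8 by voom and 1 to 8 with a library left out. It was 2 with DESeq2 size factors, with a minimum of 10 counts in each library, with edgeR on the compared groups and with a log2 fold change beyond 1 required. Mpc1 lost its call with the upper quartile (adjusted p = 0.0644) and on the compared groups (0.0763), and Mlxipl with DESeq2 size factors (0.0504) and the minimum of 10 counts (0.0528). Without 8 dpc AAV8-null replicate 3 it was 8, and without any other library of these 2 groups it was 1. For AAV8-p21 against AAV8-null at 8 dpc voom gave 1. For AAV8-p21 at 16 dpc against 8 dpc it was 1 as reported, 0 with DESeq2 size factors, with the upper quartile and with a minimum of 10 counts in each library, 4 by DESeq2 in either fit, 6 by voom and 0 in every omission. For AAV8-p21 at 16 dpc against NP it was 1 by DESeq2, 2 by DESeq2 on the compared groups, 6 by voom and 0 in every omission. The cause of these differences between tools was not tested.

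Scaling to library totals, chosen after seeing the data, gave 24 called genes for AAV8-null at 16 dpc against NP and 19 against 8 dpc, 15 for AAV8-p21 at 16 dpc against 8 dpc and 13 against NP. All of these were lower, beside 50.5%, 53.5%, 35.5% and 36.2% of all genes called. Mpc1 turned to -0.051 there between 8 dpc and 16 dpc. With the replicate block, on the 12 libraries with numbers, the counts were 1, 0, 4 and 0 in the 4 comparisons that allow it, as they were without the block, and the genes differed between NP and 16 dpc. The 4 were Pck2, Mlxipl, G6pc and Mpc1, both with and without the block. Pck2 between NP and 16 dpc gave adjusted p = 0.0626 when blocked and 0.0356 unblocked on the same 12 libraries, and the 1 gene called with the block there was Ldha (adjusted p = 0.0486). Same-numbered libraries did not deviate together (mean correlation 0.0059 over 18 pairs), so the numbers give no pairing. No block could be fitted for comparisons with AAV8-p21 at 16 dpc. Hk2, Aldoc and Ldhb rest on few counts, with 4, 9 and 10 in their lowest libraries.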

Other observations

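Eno1b, a near-identical copy of the enolase gene Eno1, had 150 counts in NP AAV8-null replicate 2 and 114 and 116 in 8 dpc AAV8-null replicates 1 and 2. In the other 12 libraries it had between 1 and 7 counts. Eno1 itself was at 141 and 140 CPM in those 8 dpc livers and at 220 in replicate 3, the only group in which it went under 193 CPM. In NP replicate 2 it was at 211 CPM, between the other two NP livers at 203 and 240. Eno1 was called between 8 dpc and NP by voom (adjusted p = 0.00853) and not by edgeR (adjusted p = 0.834). What sets the Eno1b counts apart was not tested. These genes were picked after their values were seen.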
